A study of Rattus norvegicus with 17 samples.

Results

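The genes described here copy DNA or prepare the cell for copying it. They are 49 listed genes of DNA replication and S phase, the stage of the cell cycle in which the genome is duplicated, and each measured gene was followed through its brightest probe set that carries a single gene symbol. Of the 49, 45 were measured among 14506 named genes in all, and no value for Mcm3, Mcm4, Pole2 or Chaf1a was used here. They were read in heart ventricle myocytes of newborn rats of the Sprague-Dawley strain, cultured for 5 days per the labels, with 1 Affymetrix array for each of 17 samples. Phenylephrine, an adrenergic agonist that makes cultured myocytes enlarge, was given in 2 samples. Plasma taken after nocturnal hemodialysis (NHD), a dialysis given overnight, was given in 6 samples, and plasma taken before NHD in another 6. Both are uremic plasma, that is, plasma from kidney failure, used at 10%. Control plasma was given in 3 samples. The labels do not state how much control plasma was added, what medium held the phenylephrine, or whether the replicates of a group are separate cultures or plasma donors, so the p-values measure only the spread between these samples.

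Before a cell copies its DNA, the origin recognition complex, Cdc6 and Cdt1 load the ring of MCM proteins onto replication origins, and Cdc45 and the GINS proteins turn that ring into an active helicase. Primase and polymerase alpha then start each strand, the clamp loader places the sliding clamp Pcna, and polymerases delta and epsilon extend the strands while RPA covers bare single strands. E2F transcription factors, released from the retinoblastoma protein by cyclin E kinase, switch on many of these genes, and cardiac myocytes largely leave this cycle soon after birth.

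The cultures were checked against markers of the cells they could hold. All 10 cardiomyocyte markers were measured, and their mean log2 value per array was 12.96 on both phenylephrine arrays, 13.02 to 13.17 after NHD, 12.66 to 13.07 before NHD and 12.54 to 12.58 with control plasma. The 12 fibroblast markers averaged 9.89 to 10.12, 7.62 to 9.78, 7.37 to 9.88 and 8.37 to 8.48 in the same order. RNA read by these probe sets was thus present in every group, with before NHD means from 5.84 for Lum to 12.96 for Vim. The 9 measured markers of mitosis averaged 10.04 to 10.60, 9.11 to 10.09, 6.66 to 9.17 and 7.31 to 7.40. The 7 markers of smooth muscle and pericytes averaged 10.81 to 10.91, 9.85 to 10.75, 10.01 to 11.12 and 10.69 to 10.80, so that RNA read by these probe sets was present in every group too. The 7 endothelial, 8 leukocyte and 2 erythroid markers measured had lower means, between 5.72 and 7.02 on all 17 arrays. Array medians lay between 6.89 and 7.03 on the log2 scale. In RNA from whole cultures, fewer or more cells of a type and less or more RNA per cell cannot be told apart.

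The before NHD arrays did not form a tight group for these genes. Each array can be placed for a gene on a scale on which the control plasma mean is 0 and the after NHD mean is 1. For the 19 genes that were higher after NHD than with control plasma, the median place of the before NHD arrays was -0.03 in replicate 1, 0.24 in replicate 2, 0.28 in replicate 3, 0.91 in replicate 4, 0.08 in replicate 5 and 0.91 in replicate 6. For the 11 genes that were lower after NHD, it was 0.97, 0.90, 0.58, 0.86, 0.03 and 1.16 in the same order. Replicates 4 and 6 thus lay near the after NHD mean for both sets and replicate 5 near the control mean for both, while replicates 1 and 2 lay near the control mean for the higher genes and near the after NHD mean for the lower genes. The phenylephrine arrays lay at 1.05 and 1.17 for the higher genes and at 0.98 and 0.94 for the lower genes. The SD among the 6 before NHD arrays had a median of 0.365 log2 units over the 45 genes, against 0.249 over all probe sets, and it exceeded 0.5 in 13 genes (28.9%) and in 13.3% of all probe sets. In the other groups the genes' median SD was 0.106 with phenylephrine, 0.164 after NHD and 0.102 with control plasma. Over all probe sets it was 0.094, 0.16 and 0.139 in the same order, so that all probe sets also spread most before NHD. The other S phase genes described below had a before NHD median of 0.354, close to that of the 45. Replicate 1 gave the lowest before NHD value for 19 of the 45 genes and the lowest of all 17 arrays for 12. These counts were not made over all probe sets, so they are not read as particular to these genes. The overall SD of this array, 2.244, was also the lowest of the 17.

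**Figure D1:**
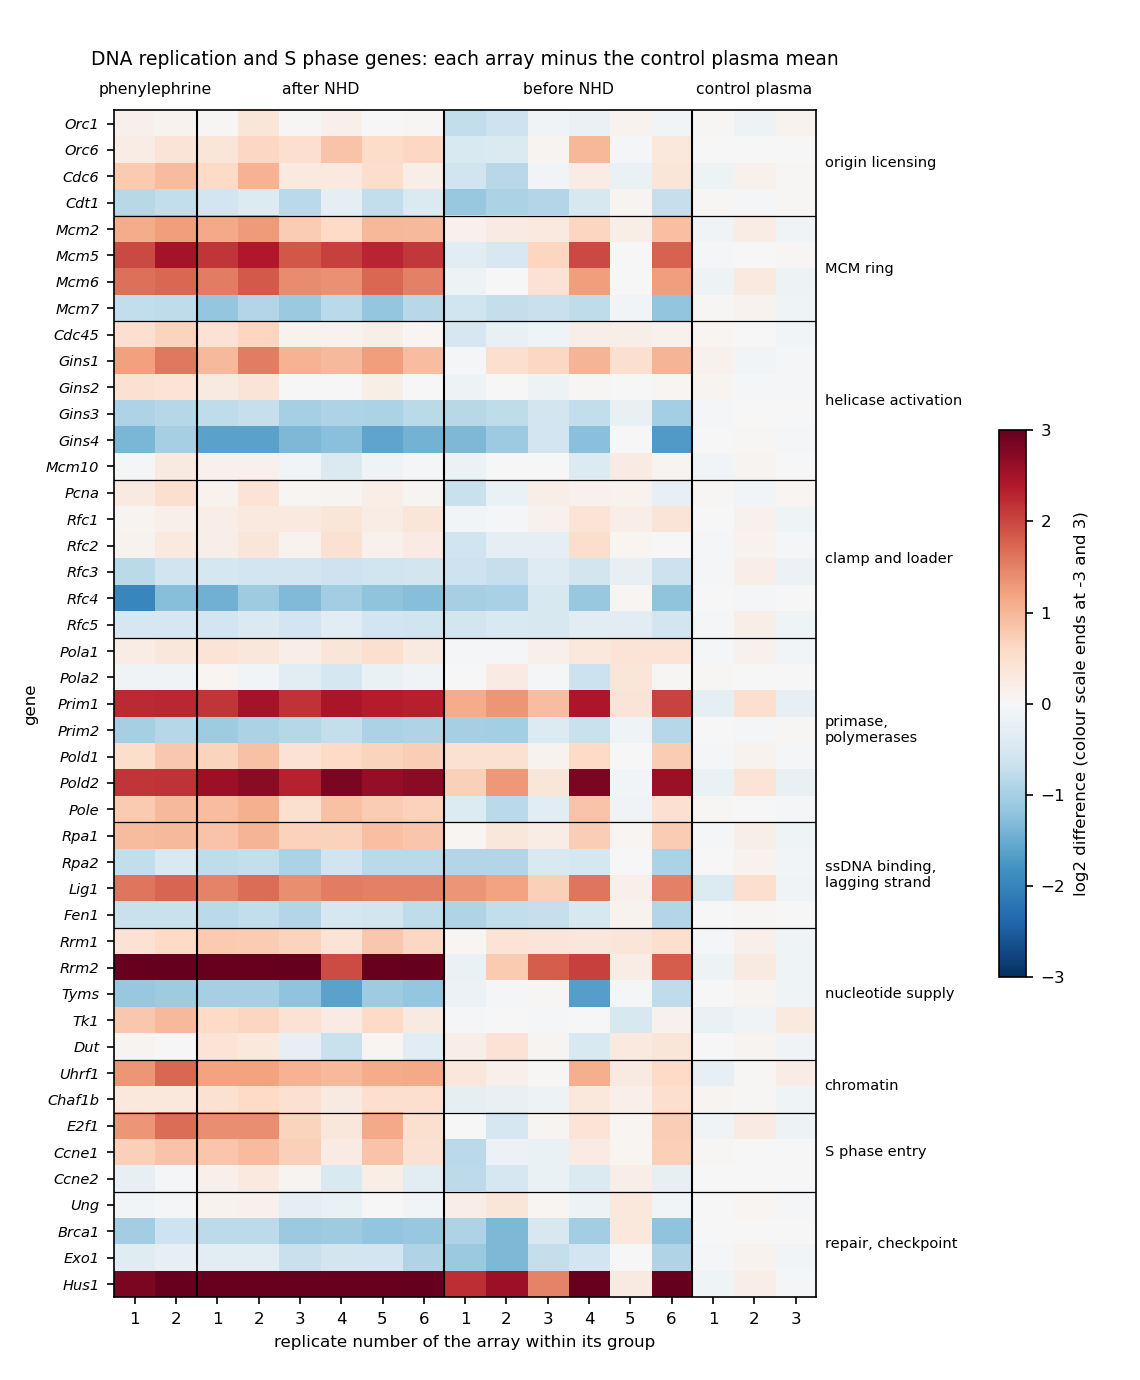
Log2 value of each of the 45 genes (rows, grouped by role) on each of the 17 arrays (columns, by group and replicate number), minus the mean of the 3 control plasma arrays; red is higher and blue lower, and the colour scale ends at -3 and 3. Red and blue rows stand side by side within the MCM ring, GINS, primase and RPA, and the before NHD columns differ from each other.

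**Figure D2:**
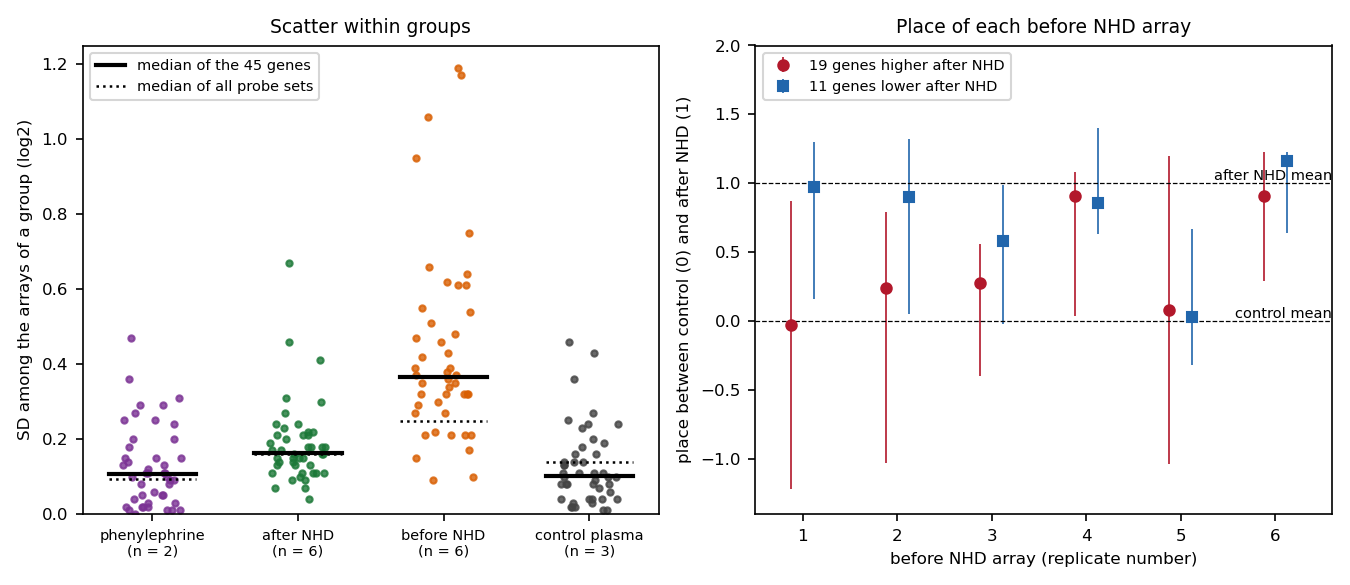
Left, the SD of each gene among the arrays of a group (points, log2 units), with the median of the 45 genes (solid line) and of all probe sets (dotted line); right, the place of each before NHD array between the control plasma mean (0) and the after NHD mean (1), as median (symbol) and range (bar) over the 19 higher and 11 lower genes. The before NHD median SD of 0.365 is the highest. The medians of replicates 4 and 6 lie near 1 for both gene sets and those of replicate 5 near 0, with wide ranges over single genes.

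Sequence upstream of these genes was read from RefSeq promoters of the GRCr8 build, 250 bases before to 50 after each start site, which were matched for 42 of the 49 genes. Orc1, Cdc6, Mcm4, Gins4, Rrm2, E2f1 and Ccne2 were not analysed for it. The motif searched, on both strands, was the E2F site in 4 spellings, TTTCCCGC, TTTCGCGC, TTTGCCGC and TTTGGCGC. It stood in 16 of the 42 promoters (38.1%), in 25 of 54 promoters of further S phase genes (46.3%), in 3.1% of the 11968 promoters of measured genes and in 2.3% of all 27457. Without the first T, which also finds every match of the longer motif, the shares were 64.3%, 66.7%, 13.8% and 10.0%. The GC content had a median of 59.7% in the 42 promoters, 58.0% in those of measured genes and 52.3% in all. A match is a string of letters and not a measured binding site. Among the 39 measured genes with a promoter, the 8-letter motif stood in 7 of the 17 that were higher after NHD than with control plasma (Mcm2, Mcm5, Mcm6, Gins1, Pola1, Pole and Lig1), in 5 of the 10 that were lower (Mcm7, Gins3, Rfc3, Rpa2 and Tyms), and in 2 of the 12 that did not pass (Cdt1 and Ung). It was thus found beside genes that moved in either direction. The 150 bases before the start site are shown for 7 genes of the MCM ring, GINS and thymidylate synthesis that hold it. Within the MCM ring and within GINS, the RNAs shown moved in opposite directions after NHD against control plasma. Tyms, the gene of thymidylate synthesis, fell. Capitals mark the motif, and where both strands match, the 2 matches overlap in 1 run of capitals.
Mcm2 (chr4:122918095-122918244, minus strand): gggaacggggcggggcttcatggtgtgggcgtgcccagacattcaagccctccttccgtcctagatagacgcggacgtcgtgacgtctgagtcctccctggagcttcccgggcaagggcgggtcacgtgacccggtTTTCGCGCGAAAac
Mcm5 (chr19:13488663-13488812, plus strand): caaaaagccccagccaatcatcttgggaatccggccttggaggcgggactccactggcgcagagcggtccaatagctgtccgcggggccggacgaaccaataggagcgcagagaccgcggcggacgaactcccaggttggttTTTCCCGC
Mcm6 (chr13:42404353-42404502, minus strand): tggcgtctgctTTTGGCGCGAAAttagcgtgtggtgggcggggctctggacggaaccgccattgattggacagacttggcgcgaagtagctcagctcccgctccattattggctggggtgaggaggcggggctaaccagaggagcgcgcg
Mcm7 (chr12:22163179-22163328, minus strand): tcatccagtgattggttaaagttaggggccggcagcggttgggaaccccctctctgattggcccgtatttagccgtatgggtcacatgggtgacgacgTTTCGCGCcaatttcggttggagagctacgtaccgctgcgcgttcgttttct
Gins1 (chr3:160184770-160184919, plus strand): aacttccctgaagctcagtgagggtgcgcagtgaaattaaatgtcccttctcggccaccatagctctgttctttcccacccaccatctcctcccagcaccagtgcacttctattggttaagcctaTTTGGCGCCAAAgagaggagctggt
Gins3 (chr19:9434680-9434829, minus strand): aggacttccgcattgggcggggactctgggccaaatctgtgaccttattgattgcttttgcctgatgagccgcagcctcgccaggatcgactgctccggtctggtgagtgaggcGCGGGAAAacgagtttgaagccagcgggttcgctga
Tyms (chr9:120776084-120776233, minus strand): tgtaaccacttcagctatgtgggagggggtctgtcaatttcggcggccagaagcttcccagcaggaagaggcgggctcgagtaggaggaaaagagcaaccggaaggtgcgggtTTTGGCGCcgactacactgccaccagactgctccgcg
Within the 150 bases shown, the match began 14 and 10 bases before the start of Mcm2 and 8 before that of Mcm5. It began 139 and 135 bases before the start of Mcm6 and 52 before that of Mcm7. It began 25 and 21 bases before the start of Gins1, 36 before that of Gins3 and 37 before that of Tyms. The searched promoters of Mcm5 and Mcm7 also held matches farther upstream, outside the bases shown.

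Cultures with after NHD plasma and with control plasma differed for most of these genes, in both directions. With after NHD plasma 19 of the 45 rose and 11 fell (limma, adjusted p under 0.05), while 12.9% of all 29214 probe sets rose and 15.3% fell. The largest increases were in Hus1, part of a checkpoint clamp that signals DNA damage, Rrm2, the small subunit of the enzyme that makes deoxynucleotides, and Pold2, a subunit of polymerase delta. The largest decreases were in Gins4, a GINS subunit of the helicase, Rfc4, a clamp loader subunit, and Tyms, which makes the thymidine nucleotide. The median difference was 0.26 log2 units over the 45 genes and -0.08 over all probe sets. The values of 21 genes lay wholly above and those of 13 wholly below the control arrays, as did 14.5% and 18.9% of all probe sets.

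Within the ring of MCM proteins, the core of the replicative helicase, 3 of 4 measured genes rose and Mcm7 fell. Mcm6 ranged from 8.29 to 8.75 on the after NHD arrays with a median of 8.44, against 6.77, 7.21 and 6.77 with control plasma, a difference of 1.56 ± 0.27 log2 units (SE of the fit, here and below; limma adjusted p = 0.00095). All 6 after NHD arrays were above all 3 control arrays. Mcm5 rose by 2.14 ± 0.43, with after NHD arrays at 8.57 to 9.11 and control arrays at 6.67 to 6.75, and Mcm2 rose by 0.96 ± 0.17. Mcm7 ranged from 8.96 to 9.31 with a median of 9.14 after NHD, against 10.16, 10.24 and 9.99 with control plasma, and its difference was -0.99 ± 0.17 (limma adjusted p = 0.00083). Here every after NHD array was below every control array. The matches printed above for Mcm5 and Mcm7 therefore stand beside genes that differed in direction.

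Among the loading and activating factors, none of the 4 origin licensing genes passed. Cdt1, which brings the ring to origins, ranged from 8.16 to 8.70 after NHD, against 8.91 to 9.02 with control plasma. In the GINS complex, which joins the ring and Cdc45, subunits moved apart. Gins1 had values of 5.55 to 6.16 with a median of 5.64 after NHD, against 4.74, 4.54 and 4.58 with control plasma, and rose by 1.12 ± 0.20 (limma adjusted p = 0.00095). All these Gins1 values lay below the array medians of 6.89 to 7.03, so that its signal was low in both groups. Gins4 had 8.66 to 9.02 with a median of 8.77, against 10.29, 10.30 and 10.22, and its difference was -1.47 ± 0.26 (limma adjusted p = 0.00095), a level 2.76-fold lower. Gins3 likewise differed by -0.86 ± 0.13. For each of these 3 genes the groups did not overlap. Gins2, Cdc45 and Mcm10 did not pass.

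The clamp loader and the sliding clamp gave decreases or no call. Rfc4 fell by 1.22 ± 0.22 log2 units, Rfc3 by 0.57 ± 0.11 and Rfc5 by 0.51 ± 0.09, which are small subunits of the loader. Rfc3 lay at 7.43 to 7.54 after NHD, against 8.03, 8.27 and 7.88 with control plasma. Pcna, the clamp itself and a common proliferation marker, did not pass, with 10.48 to 10.83 after NHD, against 10.46, 10.34 and 10.48. The large subunit Rfc1 and Rfc2 did not pass either.

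Of the 7 measured genes of primase and the polymerases, 5 rose and Prim2 fell. Prim1, the catalytic subunit of primase, ranged from 10.76 to 11.13 with a median of 10.97 after NHD, against 8.36, 9.13 and 8.39 with control plasma, and rose by 2.33 ± 0.32 (limma adjusted p = 0.00042). Prim2, its large partner subunit, ranged from 8.44 to 8.78 with a median of 8.58, against 9.49, 9.46 and 9.54, and its difference was -0.91 ± 0.16 (limma adjusted p = 0.00096). The groups did not overlap for either subunit. Pold2 rose by 2.63 ± 0.48 and Pold1, the catalytic subunit of polymerase delta, by 0.67 ± 0.15. Pole, the catalytic subunit of polymerase epsilon, rose by 0.80 ± 0.26, and Pola1, that of polymerase alpha, by 0.34 ± 0.12. Pola2, an accessory subunit of polymerase alpha, did not pass.

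Single-strand binding and lagging strand genes also divided. Rpa1 rose by 0.83 ± 0.15 log2 units, with 9.60 to 9.95 after NHD, against 8.86, 9.10 and 8.80. Its partner Rpa2 differed by -0.77 ± 0.17, with 9.07 to 9.41, against 10.00, 10.12 and 9.93. Both encode subunits of RPA, and neither gene's groups overlapped. Lig1, which seals Okazaki fragments, rose by 1.52 ± 0.26, whereas Fen1, which trims their flaps, differed by -0.71 ± 0.17.

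**Figure D3:**
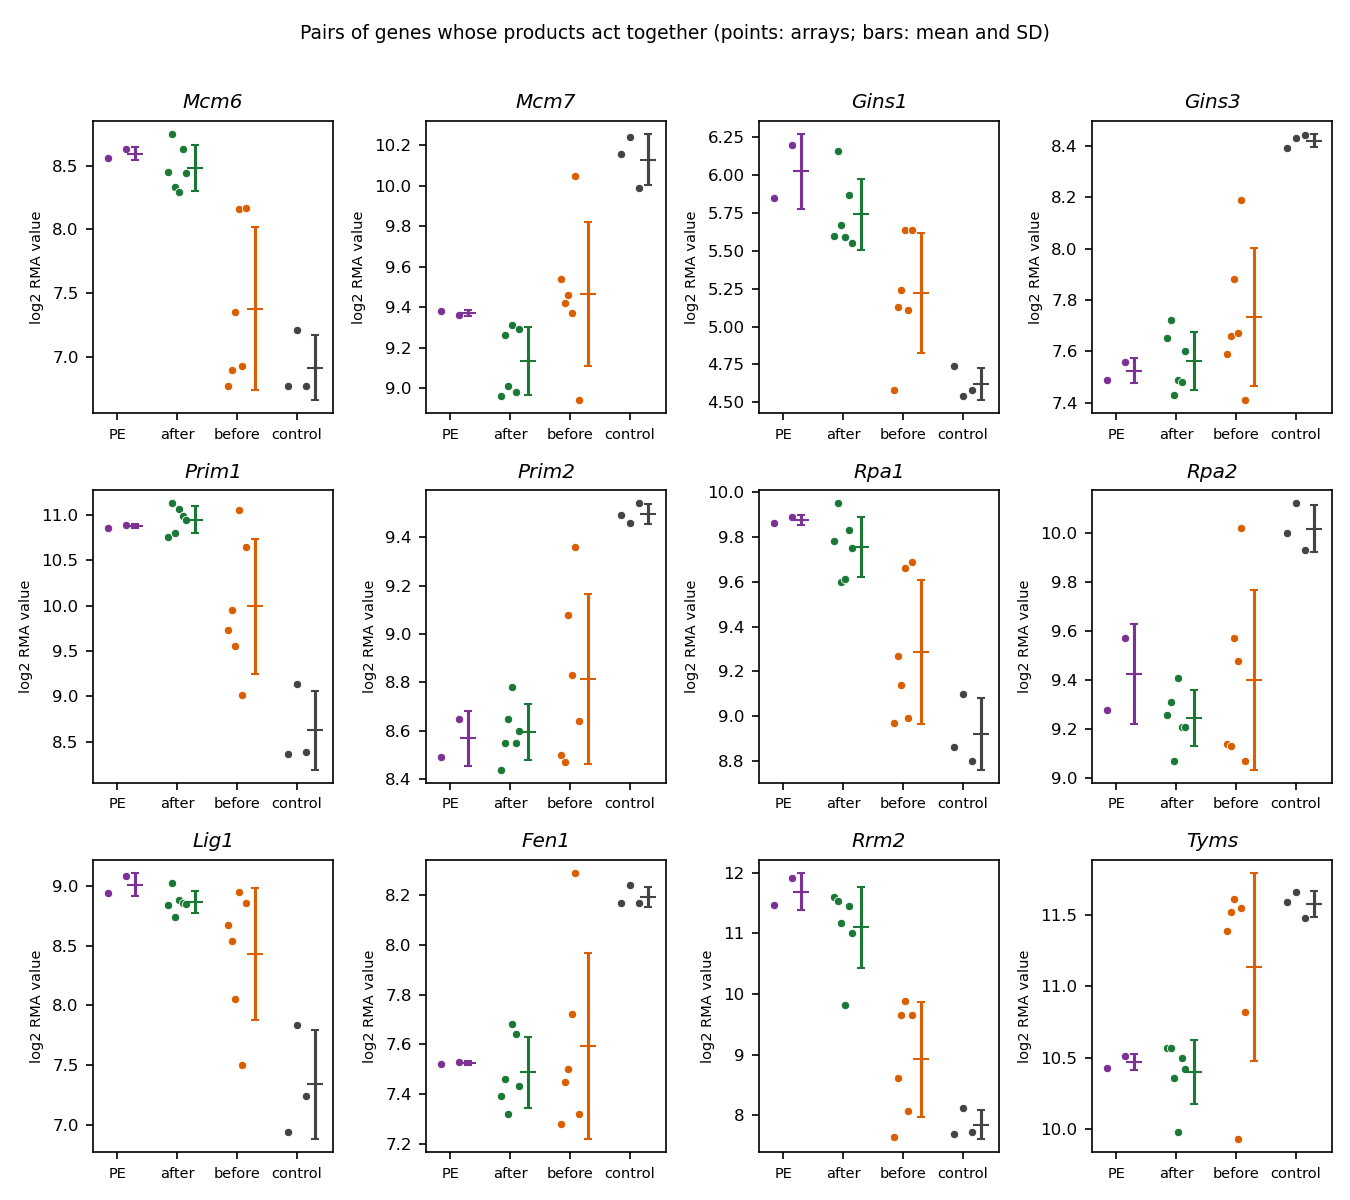
Log2 RMA values of 12 genes in phenylephrine (PE, n = 2), after NHD (n = 6), before NHD (n = 6) and control plasma (n = 3) arrays; points are arrays, bars give mean and SD, and each gene has its own axis. In each pair shown side by side, the after NHD arrays lie above the control arrays for the left gene and below them for the right gene.

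In nucleotide supply, both subunits of ribonucleotide reductase rose and Tyms fell. Rrm2 ranged from 9.81 to 11.60 with a median of 11.32 after NHD, against 7.69, 8.12 and 7.72 with control plasma, a 9.53-fold difference (3.25 ± 0.47 log2 units; limma adjusted p = 0.00045). Its second, dimmer probe set gave 3.10 ± 0.45. The lowest after NHD array, replicate 4, was still above every control array. Rrm1, the large subunit, rose by 0.68 ± 0.11 and by 0.35 ± 0.10 on its dimmer probe set. Tyms ranged from 9.98 to 10.57 with a median of 10.46, against 11.59, 11.66 and 11.48, and differed by -1.18 ± 0.28 (limma adjusted p = 0.0056). Tk1, which salvages thymidine, rose by 0.46 ± 0.14 with overlapping groups, 6.95 to 7.36 against 6.51, 6.61 and 7.01. Dut, which removes dUTP, did not pass.

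The remaining genes bear on chromatin, S phase entry and repair. Uhrf1, which guides maintenance of DNA methylation behind the fork, rose by 1.12 ± 0.18, and Chaf1b, a subunit of the histone chaperone CAF-1, by 0.46 ± 0.15. E2f1, an activating E2F factor, rose by 0.90 ± 0.26, and Ccne1, cyclin E1, by 0.68 ± 0.23, while Ccne2 did not pass. Hus1 ranged from 9.99 to 10.15 with a median of 10.07 after NHD, against 6.66, 7.01 and 6.73 with control plasma. Its after NHD values stood 3.27 ± 0.47 log2 units higher (9.67-fold; limma adjusted p = 0.00044). Brca1, a repair gene, differed by -1.01 ± 0.27, and neither Exo1, a nuclease, nor Ung, which removes uracil, passed.

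Leaving out any 1 array kept 24 of these 30 calls. The exceptions were Ccne1, Chaf1b, E2f1, Pola1, Pole and Tk1, which ended without control replicate 1 (adjusted p = 0.0651 to 0.146), and in part without control replicates 2 and 3, after NHD replicates 1 to 5 or either phenylephrine array (0.0508 to 0.145). With each array's overall SD in the model, 12 genes rose and 8 fell. Beside this, 8 of 9 mitosis markers rose, with a median of 2.92 log2 units over the 9, 6 of 10 cardiomyocyte markers rose (median 0.36) and 1 of 12 fibroblast markers, S100a4, rose (median 0.37). Kdr, 1 of 7 endothelial markers, rose by 1.58 ± 0.49 (limma adjusted p = 0.0237) while the 7 had a median of -0.08, and Cnn1, 1 of 7 smooth muscle and pericyte markers, differed by -1.16 ± 0.30 (limma adjusted p = 0.0086; median -0.31). No leukocyte or erythroid marker passed. Their part in the result was not tested.

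**Figure D4:**
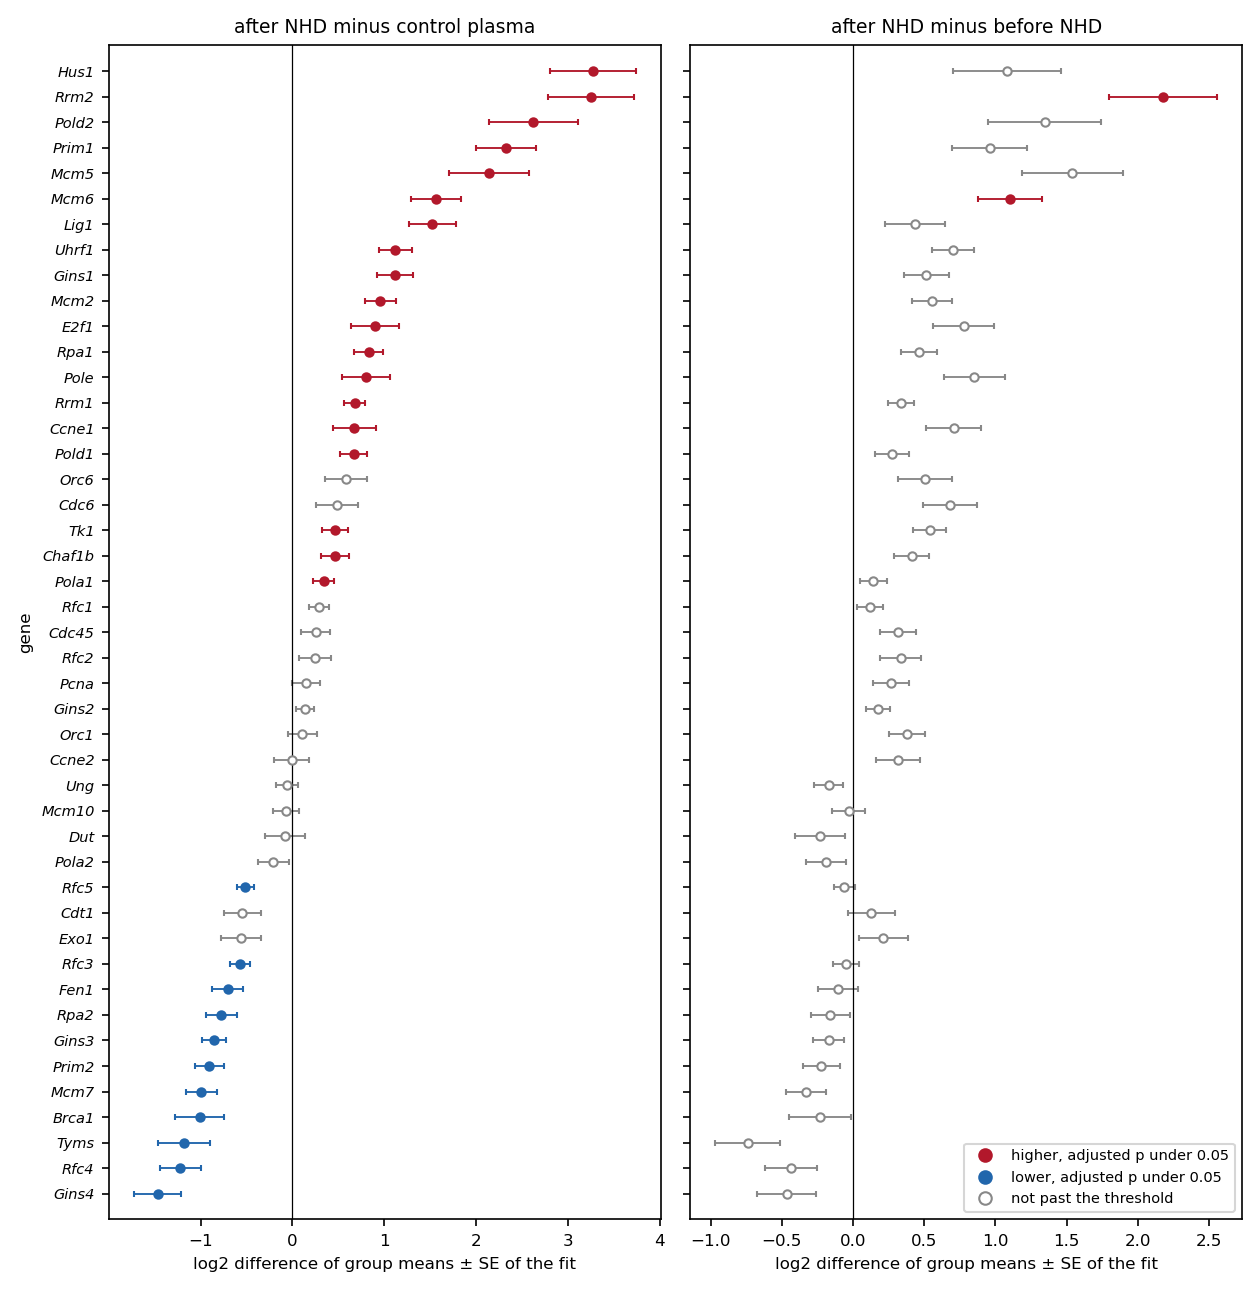
Difference of group means with its SE (log2 units) for each of the 45 genes, after NHD minus control plasma on the left and after NHD minus before NHD on the right, genes in the order of the left panel; filled points passed the threshold. On the left 19 genes are higher and 11 lower, and on the right only Mcm6 and Rrm2 passed.

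After NHD plasma was next set against before NHD plasma, the comparison the study is built on. Mcm6 and Rrm2 rose, and no gene fell, so that 2 of 45 passed, against 0.288% of probe sets that rose and 0.110% that fell. The median difference was 0.32 log2 units over the 45 genes, 30 of them positive, and -0.01 over all probe sets. Without adjustment 27 of the genes had a p under 0.05, as did 18.5% of all probe sets. Rrm2 ranged from 9.81 to 11.60 with a median of 11.32 after NHD, and from 7.64 to 9.89 with a median of 9.14 before NHD. Only after NHD replicate 4 lay within the before NHD range, and the difference was 2.18 ± 0.38 log2 units (4.52-fold; limma adjusted p = 0.0289), with 2.102 ± 0.37 on the dimmer probe set. Mcm6 ranged from 8.29 to 8.75 with a median of 8.44 after NHD, and from 6.77 to 8.17 with a median of 7.14 before NHD. Its groups did not overlap, which held for 0.294% of all probe sets among the higher and 0.349% among the lower, although before NHD replicates 4 and 6, at 8.16 and 8.17, came close, and the difference was 1.10 ± 0.22 (2.15-fold; limma adjusted p = 0.0441).

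Next by unadjusted p came Uhrf1, Tk1 and Mcm5, which did not pass. Uhrf1 had a difference of 0.70 ± 0.15 (limma adjusted p = 0.052), with 7.72 to 7.96 after NHD and 6.79 to 7.84 before NHD, where replicate 4 was the high array. Tk1 had 6.95 to 7.36 after NHD and 6.23 to 6.84 before NHD, without overlap, and a difference of 0.54 ± 0.12 (limma adjusted p = 0.056). Mcm5 had 8.57 to 9.11 after NHD, against 6.37, 6.24, 7.36, 8.70, 6.72 and 8.47 on before NHD replicates 1 to 6. Its before NHD values therefore fell into high (4 and 6) and low arrays, and the difference of 1.54 ± 0.35 had a limma adjusted p of 0.065. For the genes that fell against control plasma, the 2 uremic groups overlapped: Mcm7 had 8.96 to 9.31 after NHD and 8.94 to 10.05 before NHD, and Gins4 had 8.66 to 9.02 and 8.57 to 10.26.

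The number of genes called depended on single arrays. It was 0 without before NHD replicate 1, 2, 3 or 5 and without after NHD replicate 1, 2, 3, 5 or 6 (adjusted p of Mcm6 and Rrm2 from 0.0514 to 0.127), and 0 in a fit of only these 2 groups. It was 19 higher genes without before NHD replicate 4, 17 without replicate 6 and 9 without after NHD replicate 4, and Mcm6 alone was lost without any 1 control or phenylephrine array (0.0609 to 0.0689). In the same comparison 8 of 9 mitosis markers rose (median 2.22 log2 units), as did S100a4 among the 12 fibroblast markers, all of which had positive differences (median 0.53). No cardiomyocyte, endothelial, smooth muscle and pericyte, leukocyte or erythroid marker passed. The part of these cells in the difference was not tested.

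Before NHD plasma was then set against control plasma. Here 3 of 45 genes rose and 8 fell, against 2.88% and 2.05% of all probe sets, and the median difference was -0.04 over the 45 genes and -0.06 over all probe sets. Hus1, Prim1 and Lig1 rose. Hus1 was at 9.01, 9.37, 8.29, 10.17, 7.08 and 10.06 on before NHD replicates 1 to 6, against 6.66, 7.01 and 6.73 with control plasma. Its groups did not overlap, but replicate 5 came within reach of the controls, and the difference was 2.19 ± 0.47 (limma adjusted p = 0.025). Prim1 rose by 1.37 ± 0.32 and Lig1 by 1.09 ± 0.26, each with a lowest value, on replicate 5, inside the control range.

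The genes that fell were Mcm7, Gins3, Gins4, Rfc3, Rfc5, Prim2, Rpa2 and Exo1. Gins3 ranged from 7.41 to 8.19 with a median of 7.67 before NHD, against 8.39, 8.43 and 8.44 with control plasma, a difference of -0.69 ± 0.13 (limma adjusted p = 0.019). Gins4 was at 8.57 to 10.26 with a median of 9.09 before NHD, against 10.29, 10.30 and 10.22, overlapping through replicate 5 (limma adjusted p = 0.039). Exo1 differed by -0.78 ± 0.21, Prim2 by -0.69 ± 0.16, Mcm7 by -0.66 ± 0.17 and Rpa2 by -0.61 ± 0.17. The clamp loader genes Rfc3 and Rfc5 differed by -0.52 ± 0.11 and -0.45 ± 0.09. Hus1 lay wholly above the controls and Gins3, Prim2, Rfc3 and Rfc5 wholly below them, as did 3.49% and 4.91% of all probe sets. Replicate 5 was the highest before NHD array for 7 of these genes and stood just below replicate 4 for Rfc5, 7.98 against 7.99.

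All 11 calls ended without control replicate 1 (adjusted p = 0.140 to 0.189) or control replicate 3 (0.125 to 0.171), with each array's SD in the model (0.073 to 0.155), and in a fit of only these 2 groups (0.199 to 0.214). Without before NHD replicate 5 there were 6 higher and 12 lower, and without replicate 2 there were 0 and 2. Leaving out replicate 1 gave 3 and 3, replicate 4 gave 3 and 4, replicate 6 gave 1 and 3, and control replicate 2 gave 3 and 2. Leaving out 1 after NHD or phenylephrine array gave 3 higher and 4 to 7 lower. Among the markers, 3 of 10 for cardiomyocytes rose, and so did Kdr, 1 of 7 for endothelium (1.79 ± 0.49; limma adjusted p = 0.046), with a median of -0.03 over the 7. No marker of mitosis, fibroblasts, smooth muscle and pericytes, leukocytes or erythroid cells passed. Their part in the result was not tested.

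Phenylephrine was set against control plasma with the same control arrays. It gave 16 higher and 10 lower genes of 45, against 8.54% and 10.2% of all probe sets, with a median difference of 0.31 log2 units over the genes and -0.07 over all probe sets. Rrm2 was at 11.47 and 11.91 with phenylephrine, against 7.69, 8.12 and 7.72 with control plasma, a 14.4-fold difference (3.85 ± 0.60 log2 units; limma adjusted p = 0.00081). Hus1 was at 9.62 and 9.88, against 6.66, 7.01 and 6.73 (2.95 ± 0.60). Rfc4 was at 7.45 and 8.12, against 9.42, 9.38 and 9.42, and differed by -1.62 ± 0.29 (limma adjusted p = 0.0016). For all 3 genes both phenylephrine arrays lay outside the control range. Over all 45, 25 genes lay wholly above and 16 wholly below the controls, as did 24.6% and 32.3% of all probe sets.

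Further increases were those of Prim1 (2.25 ± 0.42), Mcm5 (2.23 ± 0.56), Pold2 (2.17 ± 0.62), Mcm6 (1.68 ± 0.35), Lig1 (1.67 ± 0.33), Uhrf1 (1.53 ± 0.24), E2f1 (1.496 ± 0.34), Gins1 (1.41 ± 0.25) and Mcm2 (1.18 ± 0.22). Rpa1, Tk1, Pold1, Rrm1 and Gins2 rose by 0.95 to 0.43 log2 units. The dimmer probe set of Rrm1 did not pass (0.26 ± 0.13; limma adjusted p = 0.183). Decreases other than Rfc4 were those of Gins4 (-1.19 ± 0.33), Tyms (-1.11 ± 0.36), Prim2 (-0.93 ± 0.20), Gins3 (-0.90 ± 0.17), Cdt1 (-0.79 ± 0.26), Mcm7 (-0.76 ± 0.22), Rfc3 (-0.69 ± 0.14), Fen1 (-0.67 ± 0.22) and Rfc5 (-0.50 ± 0.12). Mcm7, Gins3, Gins4 and Prim2 were thus lower where other genes of their complexes were higher. Without phenylephrine replicate 1 there were 11 higher and 2 lower genes, and without replicate 2 there were 9 and 4, the lone array being assumed to vary like the other groups. Without control replicate 1, 2 or 3 there were 13 and 5, 15 and 6, and 12 and 7. With each array's SD in the model 6 genes fell. In this comparison 8 of 9 mitosis markers rose (median 3.13), as did 3 of 10 cardiomyocyte markers. Of the endothelial markers Cdh5 (0.51 ± 0.11) and Kdr (1.89 ± 0.63) rose, and of the smooth muscle and pericyte markers Rgs5 rose by 1.65 ± 0.35 and Acta2 differed by -0.40 ± 0.12. Of the 12 fibroblast markers S100a4 alone passed, with all 12 positive and a median of 1.58, the highest of any comparison, and their part was not tested.

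Against before NHD plasma, phenylephrine gave 8 higher genes and 0 lower, with 1.98% and 2.36% of all probe sets. At an unadjusted p under 0.05 there were 18 genes, against 19.2% of all probe sets. Rrm2 was at 11.47 and 11.91 with phenylephrine and at 7.64 to 9.89 before NHD, a difference of 2.77 ± 0.54 log2 units (limma adjusted p = 0.0082). E2f1 rose by 1.37 ± 0.30, Mcm6 by 1.22 ± 0.32, Uhrf1 by 1.11 ± 0.21, Cdc6 by 1.06 ± 0.27, Tk1 by 0.96 ± 0.17, Mcm2 by 0.78 ± 0.20 and Gins2 by 0.47 ± 0.12. Cdc6, a loader of the MCM ring that passed in no other comparison, was at 7.36 and 7.54 with phenylephrine, against 5.74 to 6.95 with a median of 6.44 before NHD. Over all 45, 14 genes lay wholly above and 1 wholly below the before NHD arrays, as did 7.05% and 9.44% of all probe sets. All 8 calls ended without either phenylephrine array (adjusted p = 0.070 to 0.298) and in a fit of only these 2 groups (0.0794 to 0.266). There were 14 higher genes without before NHD replicate 4 or 6, 13 with each array's SD in the model and 5 without before NHD replicate 1. The mitosis markers rose in 8 of 9 cases (median 2.59), and the fibroblast markers had a median of 1.41 with 1 call. The pericyte marker Rgs5 rose by 1.84 ± 0.31 (limma adjusted p = 0.0039) and the endothelial marker Cdh5 by 0.41 ± 0.10 (limma adjusted p = 0.0276), each the 1 call among the 7 of its list. The part of these cells was not tested.

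Phenylephrine and after NHD plasma, set against each other, left 0 of the 45 genes past the threshold in limma, with 0.483% of all probe sets higher and 0.496% lower. At an unadjusted p under 0.05 there were 2 genes, against 11.8% of all probe sets. They were Gins2 (0.30 ± 0.12 log2 units; limma adjusted p = 0.292) and Tk1 (0.42 ± 0.17; 0.298). Gins2 was at 7.40 and 7.37 with phenylephrine and at 6.94 to 7.33 after NHD, and Tk1 at 7.51 and 7.69, against 6.95 to 7.36, without overlap in either gene. E2f1 (0.59 ± 0.30), Uhrf1 (0.41 ± 0.21) and Cdc45 (0.33 ± 0.18) followed. Over all 45, 4 genes lay wholly above and 3 wholly below the after NHD arrays, as did 11.6% and 12.4% of all probe sets. The differences ran from -0.46 to 0.59 over the 45 genes, with a median of 0.09. Rgs5 (1.99 ± 0.31) and Cdh5 (0.59 ± 0.10) were the only 2 markers of any cell type or of mitosis that passed. The fibroblast markers all had positive differences, from 0.18 ± 0.19 for Vim to 2.33 ± 1.10 for Dcn, though none passed. The part of these cells was not tested. A missed threshold with 2 phenylephrine arrays does not show that the groups were alike. In data simulated with this layout, 68.7% of changes of 1 log2 unit and 14.9% of those of 0.5 were recovered.

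Other genes of the S phase pathway, taken from 4 lists of which 52 genes were measured, were read in the same fit. After NHD against control plasma, 20 rose and 9 fell, against 12.9% and 15.3% of all probe sets. The largest decrease was that of Cdkn1a, which encodes the cyclin kinase inhibitor p21, at -1.72 ± 0.22 log2 units (limma adjusted p = 0.00042). It was at 11.42 to 11.84 after NHD, against 13.39, 13.42 and 13.25 with control plasma. Rb1, the retinoblastoma protein that restrains E2F, differed by -1.17 ± 0.24, and E2f8, a repressive E2F factor, rose by 0.78 ± 0.18. Usp1, a deubiquitinase that acts on Pcna, rose by 1.35 ± 0.27, Rad18, which ubiquitinates it, differed by -1.06 ± 0.26, and Cdca7, a chromatin factor, rose by 0.62 ± 0.20. The fork protection genes also divided, with Clspn at 0.94 ± 0.20 and Tipin at -0.74 ± 0.14, and Ctc1, a telomere replication factor, rose by 0.73 ± 0.14. Among firing factors Orc5 rose by 0.75 ± 0.20, while Recql4 (-0.81 ± 0.17) and Orc3 (-0.43 ± 0.09) were lower. Of these 12 calls Cdca7 and Orc5 ended without control replicate 1 or 3, and Cdca7 also without control replicate 2 or after NHD replicate 2 (adjusted p = 0.0548 to 0.0995).

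The same 52 genes gave fewer calls where before NHD plasma was compared than after NHD against control plasma, and so did all probe sets. After against before NHD, 0.288% of all probe sets rose and 0.110% fell. The shares were 2.88% and 2.05% before NHD against control plasma, and 1.98% and 2.36% for phenylephrine against before NHD. After against before NHD, E2f8 rose by 0.71 ± 0.14 (limma adjusted p = 0.0438) and Cdkn1a differed by -1.04 ± 0.18 (limma adjusted p = 0.0289). Cdkn1a was at 11.42 to 11.84 after NHD and at 12.66, 12.81, 13.06, 11.93, 13.29 and 12.27 on before NHD replicates 1 to 6, without overlap, with replicates 4 and 6 nearest to the after NHD arrays. Both calls ended without after NHD replicate 1, 2, 3, 5 or 6 and without before NHD replicate 1, 2 or 3, and that of E2f8 also without before NHD replicate 5 or any 1 control or phenylephrine array (adjusted p = 0.0609 to 0.127). Before NHD against control plasma, Ctc1 (0.70 ± 0.14) and E2f3 (0.46 ± 0.12), an E2F factor, rose, and Tipin (-0.63 ± 0.14) and Recql4 (-0.62 ± 0.17) were lower, and these 4 calls ended without control replicate 1 or 3 (adjusted p = 0.144 to 0.225). Phenylephrine gave 10 higher and 8 lower against control plasma, beside 8.54% and 10.2% of all probe sets. Cdkn1a differed by -1.97 ± 0.29 and Tipin by -1.24 ± 0.18. Against before NHD plasma, phenylephrine gave 2 genes higher, E2f8 (1.004 ± 0.20) and Pclaf (1.74 ± 0.35), a Pcna-binding factor. It gave 3 lower, among them Cdkn1a (-1.29 ± 0.26). The calls of E2f8, Pclaf and Cdkn1a ended without either phenylephrine array (adjusted p = 0.0866 to 0.210). Against after NHD plasma 0 of the 52 passed in limma, with 0.483% of all probe sets higher and 0.496% lower. At an unadjusted p under 0.05 there were 7, against 11.8% of all probe sets.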

How the data were processed

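The deposited table holds log2 expression values. Per the submitters' processing notes, the authors made them with RMA, which corrects background, equalises the distributions of the arrays and summarises the probes of a probe set, so a shift shared by most genes would be removed. The version of RMA is not given in the sources, nor is the definition of the probe sets. The table held 29214 probe sets on 17 arrays, from 1.28 to 14.29 with 0 missing values. Of them, 15310 had 1 gene symbol in the platform annotation, 323 several and 13581 none here, and symbols were updated through RefSeq (GRCr8) for 15279.

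All probe sets went into 1 linear model of the 4 groups in limma 3.58.1 under R 4.3.3 (lmFit, eBayes, 13 residual and 3.32 prior degrees of freedom). The p-values are two-sided, with Benjamini-Hochberg adjustment over all 29214 probe sets and a threshold of 0.05, and a gene "passed" below it. The error pools the spread of all groups, which was unequal. Signal is given for the highest-mean probe set of a gene. Levels of different probe sets are not comparable. Precision is limited by how many arrays a group has. Comparisons share arrays: each group enters 3 of the 6. Differences are given for genes that passed (filled up to 5 by smallest unadjusted p) and for up to 3 further pathway genes per list. The members, lists and tests were chosen with earlier results of these data known. Where a title gave 2 replicate numbers (2 before NHD samples), the last was used. Replicate numbers were not taken to pair samples, since the labels do not say that they do. Same-numbered before and after NHD samples correlated at -0.03 to 0.60 in their deviations, and differently numbered ones at -0.45 to 0.35. Not every same-numbered pair exceeded 0.1, which does not decide whether some samples are paired. No batch is named in the labels. The fit was tested on simulated data, in which 92.5% of changes of 1 log2 unit and 43.3% of 0.5 were recovered for after against before NHD. This recovery need not hold for the 45 genes, which spread more before NHD than all probe sets (median SD 0.365 against 0.249). In that comparison Mcm5, with a difference of 1.54 log2 units, did not pass. The alternatives were 1 probe set per gene, the dimmest probe set, brighter probe sets only, a trended robust prior, a repeated quantile normalization, array weights, array SD as a term, only the groups compared, a 1.5-fold minimum, the replicate block, the samples numbered 4 left out, and each array left out in turn.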

Additional observations from a re-analysis of the deposited data

Results flagged for a closer look

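Dixon's test looks for an array that lies far from the others of its group. It was run on the 45 genes in both groups of 6 arrays, 90 tests in all, and singled out 4 values above its critical ratio of 0.625, where chance gives about 1 in 20, or 4.5 of 90, so that the number found was no more than chance gives. Rrm2 on after NHD replicate 4 was the lowest of its group at 9.81 log2 units, with the next array at 11.01 and the highest at 11.60, a gap of 0.672 of the range. Tyms on the same array was the lowest at 9.98, with the next at 10.36 and the highest at 10.57 (0.647). Rrm1 on before NHD replicate 1 was the lowest at 11.31, against 11.61 and 11.77 (0.662), and Tk1 on before NHD replicate 5 was the lowest at 6.23, against 6.64 and 6.84 (0.667).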

How the results depend on the processing

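No difference named for the 45 genes or the other pathway genes turned its direction under any of the 11 alternatives that held the gene or when any 1 of the 17 arrays was left out. Tk1, Gins1, Exo1, Cdc6 and Clspn had no value among brighter probe sets. Marker genes were not refitted. Calls were less stable, and the cause was not tested. After against before NHD, where 2 genes were higher and 0 lower, there were 4 higher with 1 probe set per gene, 6 among brighter probe sets (40 genes tested), 21 higher and 1 lower with array weights, 19 and 1 without the samples numbered 4, and 0 higher in a fit of only the groups compared. Before NHD against control plasma (3 and 8) gave 0 and 0 with array SD as a term and in a fit of only those groups, 10 and 13 with array weights, and 4 lower without the samples numbered 4. After NHD against control plasma (19 and 11) gave 12 higher with array SD as a term, and phenylephrine against control plasma (16 and 10) gave 6 lower. Phenylephrine against before NHD (8 and 0) gave 13 higher with array SD as a term, 18 and 2 with array weights, 14 and 2 without the samples numbered 4, and 0 higher with only those groups.

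With 1 array left out in turn, the higher and lower counts ran from 0 to 19 and 0 to 2 after against before NHD, 0 to 6 and 0 to 12 before NHD against control plasma, and 13 to 21 and 11 to 13 after NHD against control plasma. Phenylephrine gave 9 to 19 and 2 to 12 against control plasma and 0 to 14 and 0 to 2 against before NHD. Against after NHD plasma all counts were 0 under every setting.

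The fit with the replicate block gave 3 higher and 1 lower gene after against before NHD, 3 and 11 before NHD against control plasma, 14 and 13 after NHD against control plasma, 15 and 10 for phenylephrine against control plasma, 7 and 1 against before NHD and 0 and 0 against after NHD. It ended the calls of Ccne1, Chaf1b, E2f1, Pola1 and Pole after NHD against control plasma, of Gins2 with phenylephrine against control plasma, and of Cdc6, E2f1, Gins2 and the pathway gene Tipin against before NHD. The numbers were not taken as pairs. Before and after NHD samples of the same number correlated at 0.10, 0.42, 0.60, 0.57, -0.03 and 0.25 for numbers 1 to 6. Before NHD samples 2, 3 and 4 correlated best with the after NHD sample of their own number, and 1, 5 and 6 did not. Whether some samples are paired is not stated in the labels.

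The small groups and the wide before NHD arrays limit these counts, and 2 phenylephrine arrays leave its own spread nearly unmeasured.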
